A study of Canis lupus familiaris with 25 samples.

Results

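The calcium and vitamin D hormone axis was examined in archival canine tumors through 9 genes: the hormone gene PTHLH, its receptor gene PTH1R, the calcium-sensing receptor gene CASR, the RANK genes TNFSF11, TNFRSF11A and TNFRSF11B, the vitamin D hydroxylase genes CYP24A1 and CYP27B1, and the vitamin D receptor gene VDR. The members were chosen by name, because apocrine gland anal sac adenocarcinoma is known for humoral hypercalcemia, and with earlier results of these data known. Of the 9 members, 8 were found among the 24532 genes of the count table. CYP24A1 was not analysed here. RNA was measured with QuantSeq 3′, a method that reads each transcript close to its 3′ end, in formalin-fixed, paraffin-embedded (FFPE) tissue of privately owned pet dogs. The groups were 10 hepatoid gland adenomas (HGA, benign perianal tumors of dogs aged 8 to 14 years), 11 primary apocrine gland anal sac adenocarcinomas (AGASAC, malignant, 8 to 12.5 years) and 4 lymph node metastases of the dogs of AGASAC 1 to 4 (8 to 10 years). No treatment or genotype is given in the labels, and serum calcium was not analysed here. Of the HGA dogs, 4 were intact males, 1 was a neutered male, 2 were intact females and 3 were neutered females, whereas the primary AGASAC came from 6 neutered males, 0 intact males, 2 intact females and 3 neutered females. The metastases came from 2 neutered males, 1 intact female and 1 neutered female. Sex and neutering therefore differed between the tumors as well.

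The genes belong to a loop that keeps blood calcium in range. PTHLH encodes parathyroid hormone-related protein, which acts on PTH1R, the receptor it shares with parathyroid hormone, in bone and kidney, and its release by tumors is the classic route to humoral hypercalcemia of malignancy. TNFSF11 (RANKL) drives osteoclast formation through its receptor TNFRSF11A (RANK), and TNFRSF11B (osteoprotegerin) is the soluble decoy that binds RANKL. CASR lets cells sense extracellular calcium, CYP27B1 makes active vitamin D, CYP24A1 breaks it down, and VDR is the nuclear receptor through which active vitamin D regulates transcription.

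The total count per sample was between 1562347 and 6389555 in HGA, between 2581453 and 4218340 in primary AGASAC and between 2857541 and 3289546 in the metastases. Levels are given as CPM, counts scaled to a common library size with TMM, a factor per sample that offsets differences in library composition. Up to 3 counts remain possible where 0 were read, equal to 0.543 to 1.84 CPM depending on the sample, and this limit covers counting error only. The share of RNA fragments over 200 bases (DV200) was 70.5% to 92.7% in HGA and 70.2% to 84.4% in primary AGASAC. Markers of glandular luminal epithelium summed to 289 to 638 CPM in HGA and to 4973 to 9391 CPM in primary AGASAC, whereas squamous epithelial markers summed to 3059 to 12564 CPM in HGA and to 54.2 to 218 CPM in primary AGASAC, so both sums separated the 21 primary tumors by label. The squamous sum was mostly KRT14 and KRT5 (HGA medians 3367 and 848 CPM). KRT10 had medians of 90.5 CPM in HGA and 83.2 CPM in primary AGASAC, and KRT1 had medians of 0 in both. In HGA the luminal sum was nearly all EPCAM (median 504 CPM). Skeletal muscle markers ranged from 7.78 to 886 CPM in primary AGASAC and from 0.570 to 22.7 CPM in HGA, although the tissue next to the tumors had been removed. Of 6 RNA extraction batches, batches 5, 6 and 8 held at least 2 HGA and 2 primary AGASAC each. The sequencing file names fell into 2 naming series, with 9 HGA and 3 primary AGASAC in series A and 1 HGA and 7 primary AGASAC in series B, so that the series and the tumor type were largely confounded.

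The members differed widely in how well they were measured. In the comparison of HGA with primary AGASAC, PTHLH and VDR passed the filter on low counts, and the other 6 members were read too rarely. Of these 2 tested members, VDR passed the thresholds, which were an adjusted p no larger than 0.05 by Benjamini-Yekutieli and a log2FC outside the range between −1 and 1, and was higher in HGA, and PTHLH did not pass. Over all genes tested, 25.1% were called (3032 of 12070), with 12.6% higher and 12.5% lower in HGA. A positive log2FC is higher in HGA. Scaling by library size alone gave 1053 genes higher and 2156 lower in HGA in place of 1523 and 1509, and shifted the median log2FC of all genes from −0.03 to −0.33.

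**Figure D1:**
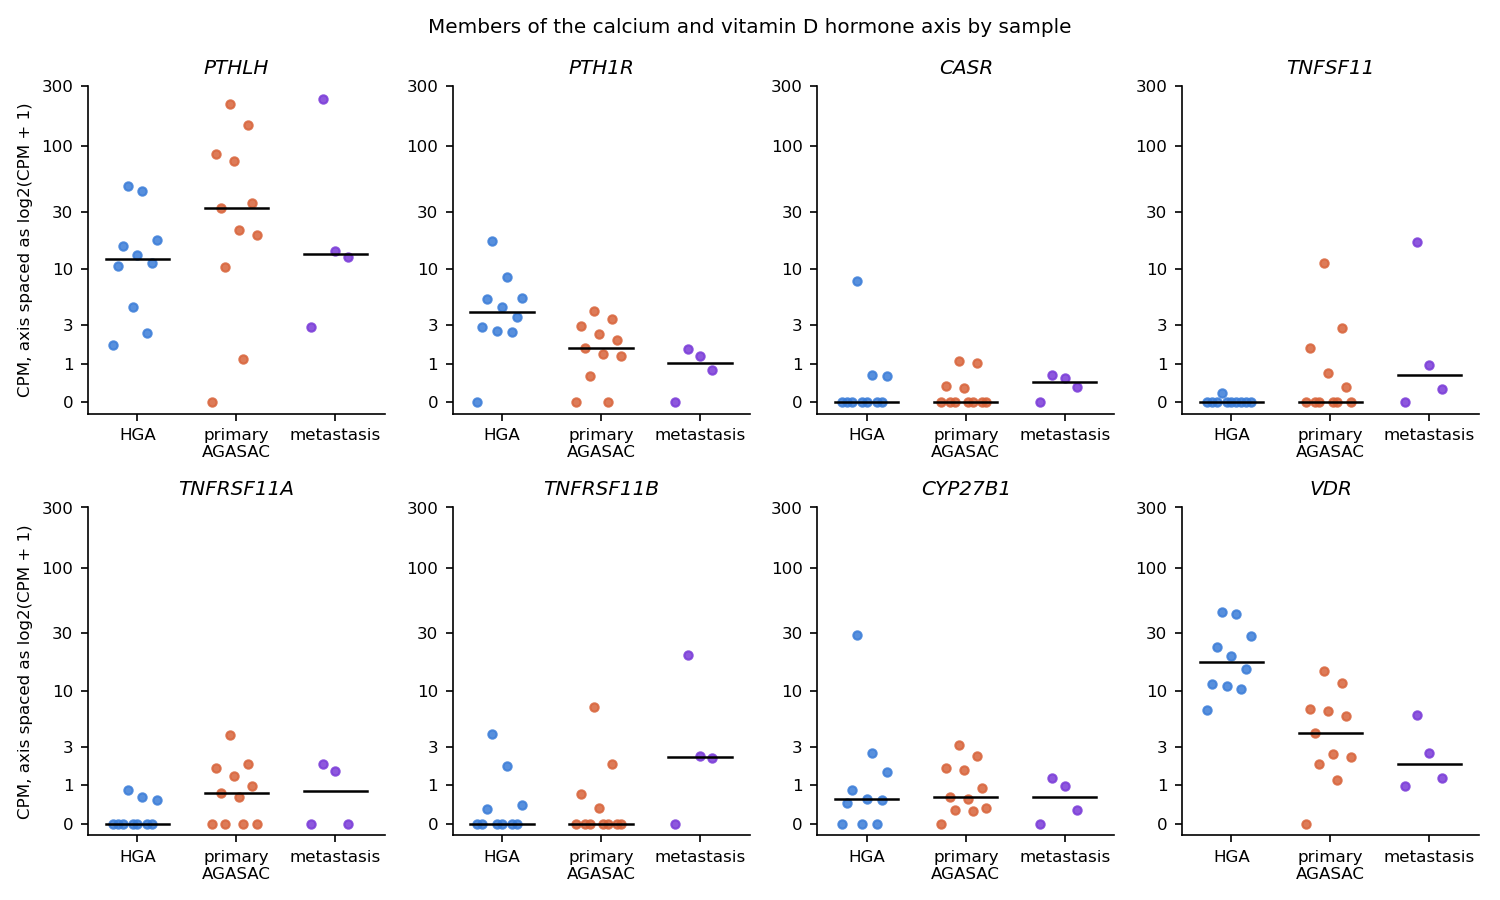
Level of each member in each of the 25 samples, in CPM on an axis spaced as log2(CPM + 1), with HGA, primary AGASAC and metastases side by side, each point a sample and each black line a group median. PTHLH spans the widest range, from 0 to 216 CPM in primary AGASAC, VDR lies at 6.73 CPM or above in all 10 HGA, and the remaining members are at a few CPM apart from single samples.

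PTHLH, the hormone gene, was read in 24 of the 25 samples, and its level varied widely among tumors of the same type. In HGA it ranged from 1.81 CPM (HGA 2, 4 counts) through a median of 12.2 to 48.2 CPM (HGA 10, 112 counts). In primary AGASAC it ranged from 0 counts in AGASAC 8, where up to 1.01 CPM is allowed, through a median of 31.9 to 216 CPM in AGASAC 11 (889 counts, exact Poisson 95% interval 202 to 231 CPM). The groups overlapped, with AGASAC 2, 4, 6 and 11 (4 tumors) above the highest HGA and AGASAC 3 and 8 (2 tumors) below the lowest HGA.

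The high end of primary AGASAC was held by AGASAC 11 at 216 CPM, AGASAC 2 at 147 CPM, AGASAC 6 at 87.9 CPM and AGASAC 4 at 77.3 CPM. The counting intervals of AGASAC 6 (77.4 to 99.3 CPM) and AGASAC 4 (68.5 to 86.9 CPM) overlapped, and those of AGASAC 11 and AGASAC 2 (133 to 161 CPM) lay apart from each other and from both. The SD of log2(CPM + 1) of PTHLH was 2.41 among primary AGASAC, where the median over all 12070 tested genes was 0.526 and 99.5% of the tested genes had a lower SD. Among HGA it was 1.39, with 94.4% of the tested genes lower. These SDs are a description and also depend on the level of a gene.

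The mean was 16.99 ± 16.3 CPM in HGA (SD, n = 10) and 58.9 ± 68.5 CPM in primary AGASAC (SD, n = 11). The log2FC was −1.77 (SE 0.74, edgeR adjusted p = 0.534, unadjusted p = 0.0258), so the higher mean of AGASAC did not pass the test. Within extraction batches 6 and 8 the log2FC was −2.89 (SE 0.68) and −3.28 (SE 1.11), and within batch 5 it was 0.33 (SE 0.99), with adjusted p of 0.227, 0.909 and 1. In batch 5 the 3 primary AGASAC lay between 1.19 and 35.7 CPM and the 3 HGA between 10.7 and 44.3 CPM. Without AGASAC 11 the log2FC was −1.33.

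PTH1R, the receptor for this hormone, had at least 10 counts in 4 of the 10 HGA and in 3 of the 11 primary AGASAC. In HGA it ranged from 0 counts (HGA 4) through a median of 4.09 CPM to 17.3 CPM in HGA 7 (57 counts), and in primary AGASAC from 0 counts (AGASAC 8 and 9) through a median of 1.63 to 4.19 CPM in AGASAC 7 (12 counts). Of the HGA, 5 lay above the highest primary AGASAC, and 9 lay above the AGASAC median. PTH1R did not pass the filter in this comparison, and with no filter its log2FC was 1.51 (SE 0.65, edgeR adjusted p = 0.726).

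CASR, the calcium sensor, was at or under the limit that a count of 0 allows in nearly every sample. The exception in HGA was HGA 1 with 44 counts (7.96 CPM), the most deeply sequenced sample, while the other 9 HGA held 0 to 2 counts. Primary AGASAC held 0 to 4 counts and the metastases 0 to 2. With no filter the log2FC was 1.74 (SE 1.103, edgeR adjusted p = 1), and without HGA 1 it was −0.74. A difference between the tumors was not detectable at this depth.

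Among the RANK genes, TNFSF11, the osteoclast-forming ligand, had most of its counts in the tumors of dog 4. The 10 HGA held 1 count together. AGASAC 4 had 41 counts (11.4 CPM), and the other 10 primary AGASAC had 0 to 8 counts, with 6 of the 11 at 0. Against the limit of 3 counts per HGA sample (mean 1.24 CPM), the mean of primary AGASAC of 1.53 ± 3.39 CPM (SD, n = 11) was at least 1.23-fold higher, and without AGASAC 4 its mean of 0.540 CPM was under that limit. TNFSF11 did not pass the filter, and with no filter its adjusted p was 0.0549 (edgeR), and 0.354 with DESeq2. It was 0.252 without AGASAC 4, 0.184 without HGA 1 and 0.0939 without HGA 10 (edgeR). Without AGASAC 2 or without AGASAC 11 the same fit gave 0.0446 and 0.0398, past the threshold.

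AGASAC 4 and its metastasis held T cell markers, a cell type that also makes RANKL, at 38.4 and 36.4 CPM. The range of this list of 6 genes was 12.1 to 96.5 CPM over primary AGASAC, 36.4 to 57.6 CPM over the metastases and 0.615 to 42.7 CPM over HGA, so the tumors of dog 4 were not the highest of their groups. Osteoclast markers summed to 146 CPM in AGASAC 4, the highest primary AGASAC, where the range was 42.7 to 146 CPM, with CALCR at 0 in all 11. In HGA they summed to 46.1 to 260 CPM. Within this list CTSK was highest, with medians of 75.5 CPM in primary AGASAC and 77.9 CPM in HGA. In primary AGASAC the medians of ACP5, DCSTAMP, OCSTAMP and OSCAR were 13.9, 0, 0 and 0.243 CPM. The sum therefore says little about the other genes of the list. The part of T cells or osteoclasts in the TNFSF11 counts was not tested.

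TNFRSF11A, the RANK receptor gene, was at 0 counts in 7 of 10 HGA and in 4 of 11 primary AGASAC. The highest values were 0.816 CPM in HGA (4 counts) and 3.92 CPM in AGASAC 2 (12 counts). With no filter the log2FC was −2.09 (SE 0.98, edgeR adjusted p = 1). TNFRSF11B, the decoy, was at 0 counts in 6 of 10 HGA and 7 of 11 primary AGASAC, and its highest values were 3.99 CPM in HGA 3 (7 counts) and 7.23 CPM in AGASAC 1 (24 counts). Its log2FC with no filter was −0.58 (SE 1.16, edgeR adjusted p = 1), and DESeq2 gave 1.22, the opposite direction. For neither receptor was a difference between the tumors detectable at this depth.

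VDR, the vitamin D receptor, was the member called between the tumors. It had at least 10 counts in all 10 HGA and in 6 of the 11 primary AGASAC. It therefore passed the filter mainly through HGA, where it was high, so its call is not independent of the filter. In HGA it ranged from 6.73 CPM (HGA 6, 33 counts) through a median of 17.5 to 44.7 CPM (HGA 10, 104 counts). In primary AGASAC it ranged from 0 counts (AGASAC 1) through a median of 4.16 to 14.7 CPM (AGASAC 2, 45 counts). All 10 HGA lay above the AGASAC median, 6 lay above the highest primary AGASAC, and 8 of 11 primary AGASAC lay below the lowest HGA, so the groups overlapped in a narrow range. In tissue RNA of this kind, fewer cells that express a gene and less RNA per cell cannot be told apart.

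The mean of VDR was 21.4 ± 13.6 CPM in HGA (SD, n = 10) and 5.28 ± 4.57 CPM in primary AGASAC (SD, n = 11), a log2FC of 2.05 (SE 0.51, edgeR adjusted p = 0.0183). With the filter, when each of the 21 tumors was left out in turn, the log2FC stayed between 1.87 and 2.33 with adjusted p of 0.00658 to 0.0486. With no filter the edgeR adjusted p was 0.0333. Some fits with no filter and a tumor left out were added after seeing the data. In these the call was lost without AGASAC 4 (edgeR adjusted p = 0.0580), AGASAC 11 (0.0604), HGA 1 (0.0518) or HGA 10 (0.0696). It was kept without AGASAC 2 (0.0101). The call was lost with the extraction batch as a term (log2FC 1.89, adjusted p = 0.181), with the naming series as a term (2.24, adjusted p = 0.0655, in a fit without AGASAC 4, which was assigned to no series, where leaving out AGASAC 4 alone gave 1.97 and 0.0370) and with library size alone (1.77, adjusted p = 0.0601, or 2.098 relative to the median of all genes). Within extraction batches 5, 6 and 8 the log2FC was 2.42 (SE 0.84), 2.21 (SE 0.68) and 0.46 (SE 1.34), none past the threshold. In batch 8 the 2 HGA were at 6.73 and 10.3 CPM and the 3 primary AGASAC at 0, 4.16 and 14.7 CPM. The sum of the squamous epithelial markers, given above, moved with VDR between the groups, although KRT10 and KRT1 of that list had similar medians in both. The part of squamous cells in the VDR difference was not tested.

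**Figure D2:**
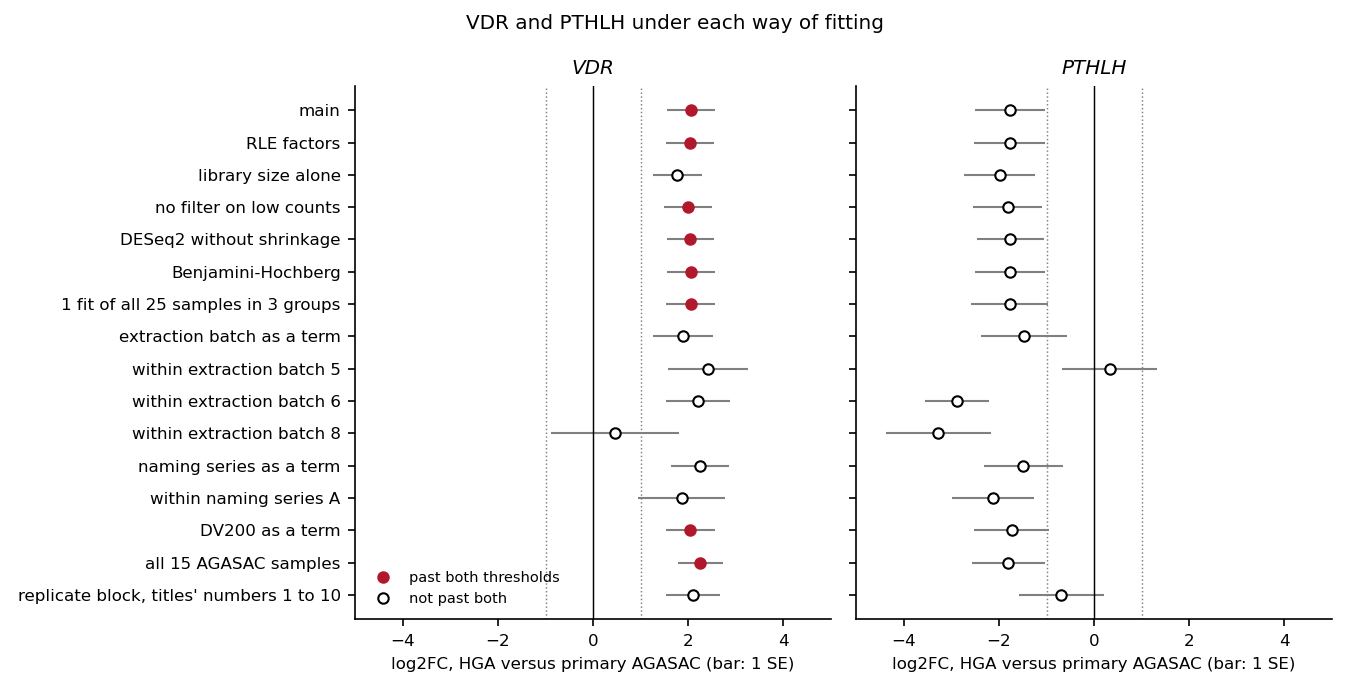
The log2FC of VDR and PTHLH between HGA and primary AGASAC with its SE under each way of fitting, with positive values higher in HGA, dotted lines at the log2FC threshold and filled points where both thresholds were passed. The fit with the naming series leaves out AGASAC 4. The fit with all 15 AGASAC samples adds the metastases to the primary tumors, so dogs 1 to 4 enter it with both of their samples. VDR is positive in each fit shown and falls to 0.46 within extraction batch 8, and PTHLH is negative except within extraction batch 5, where it is 0.33.

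CYP27B1, the enzyme that makes active vitamin D, stood out in a single adenoma. HGA 10 had 68 counts (29.2 CPM), and the other 9 HGA had 0 to 6 counts, with the next at 2.55 CPM. Primary AGASAC ranged from 0 to 3.12 CPM (9 counts at most) with a median of 0.603 CPM. With no filter the log2FC was 1.71 (SE 0.94, edgeR adjusted p = 1), and without HGA 10 it was −0.54. HGA 10 was also the highest HGA for PTHLH and VDR and was the only sample of extraction batch 9 and the only HGA of naming series B. Its squamous and luminal markers (4564 and 508 CPM) lay within the range of the other HGA.

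The metastases address whether the axis differs between the primary tumor and its spread in the same dog. For PTHLH the direction was not shared by the 4 dogs. In dog 1 the primary tumor had 31.9 CPM and the metastasis 12.7 CPM. In dog 2 the primary tumor had 147 CPM and the metastasis 14.3 CPM, which was 10.2-fold lower. In dog 3 both were low, at 1.19 and 2.89 CPM (4 and 9 counts), and in dog 4 the metastasis had 236 CPM against 77.3 CPM in the primary tumor, which was 3.06-fold higher. The highest PTHLH level of all 25 samples was thus in the metastasis of dog 4.

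The log2FC of PTHLH in metastases relative to the primary AGASAC of the same dogs was 0.05 (SE 1.38, edgeR adjusted p = 1), and with the dog as a block it was −0.71 (adjusted p = 1). Without metastasis 4 it was −2.69, and without AGASAC 1 or AGASAC 3 it was −0.18 and −0.35. Over all genes, 0% were called (0 of 12629 with edgeR, with 145 genes at an unadjusted p under 0.05), and DESeq2 called 5. With the dog as a block edgeR called 1 gene, with 491 at an unadjusted p under 0.05, and 9 genes with the block and no filter. PTHLH was the only member that passed the filter here.

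**Figure D3:**
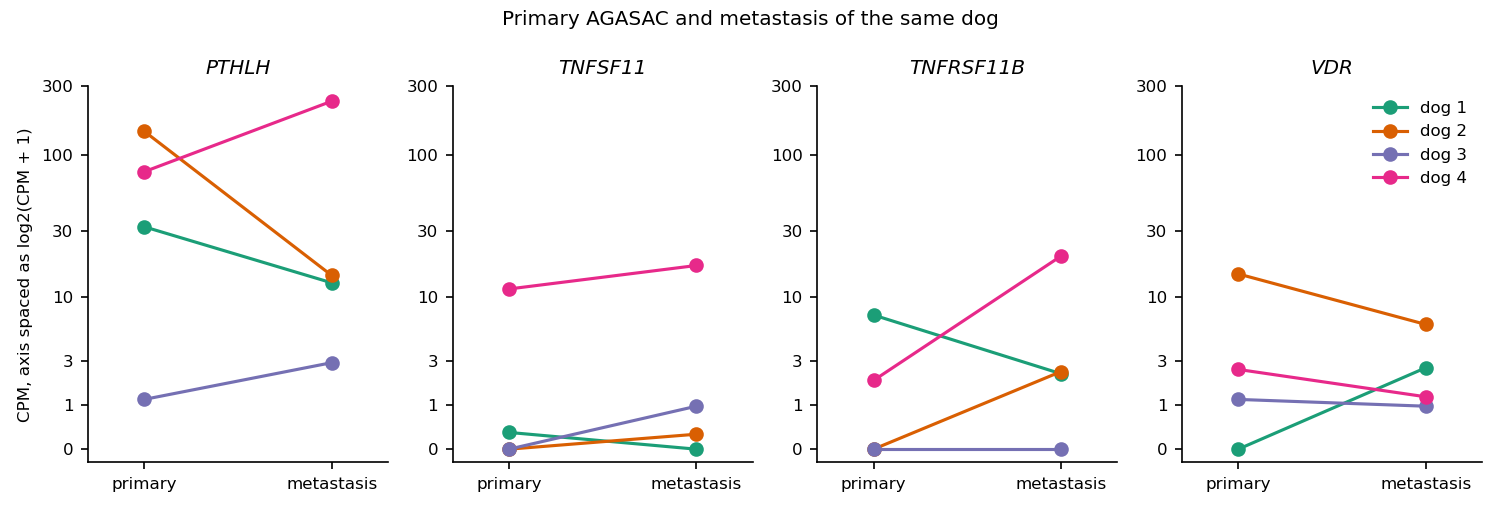
PTHLH, TNFSF11, TNFRSF11B and VDR in the primary AGASAC and the metastasis of each of 4 dogs, in CPM on an axis spaced as log2(CPM + 1), with a line for each dog. PTHLH is lower in the metastasis of dogs 1 and 2 and higher in that of dogs 3 and 4, and the metastasis of dog 4 is the highest metastasis for PTHLH, TNFSF11 and TNFRSF11B.

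Of the RANK genes, TNFSF11 and TNFRSF11B had most of their counts over these 8 samples in dog 4. TNFSF11 had 41 counts in its primary tumor and 53 in its metastasis (11.4 and 16.9 CPM), while the other 3 dogs had 0 or 1 count in the primary tumor and 0, 1 and 3 in the metastasis. TNFRSF11B had 7 counts in the primary tumor of dog 4 and 62 in its metastasis (1.95 and 19.8 CPM). In dog 1 TNFRSF11B went the other way, from 24 counts in the primary tumor to 7 in the metastasis, and in dog 2 from 0 to 9. TNFRSF11A had 12 and 6 counts in dog 2, 7 and 6 in dog 4, 2 and 0 in dog 1 and 0 in both samples of dog 3.

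VDR lay under the lowest HGA in all 4 metastases and in 3 of their 4 primary tumors. The metastases of dogs 1 to 4 had 2.60, 6.10, 0.965 and 1.28 CPM, and the primary tumors 0, 14.7, 1.19 and 2.502 CPM. PTH1R had 0, 3, 5 and 4 counts in the metastases of dogs 1 to 4, and CYP27B1 had 0 to 4. None of these genes passed the filter between metastases and primary tumors.

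VDR was also lower in metastases than in HGA. The 4 metastases (0.965 to 6.10 CPM, mean 2.74 ± 2.35, SD, n = 4) all lay below the 10 HGA. The share of all tested genes that separate these groups in this way was not computed, so this is a description. The log2FC of metastases relative to HGA was −2.96 (SE 0.65, edgeR adjusted p = 0.0226). Over all genes, 16.1% were called in this comparison (2124 of 13195, with 7.69% higher and 8.4% lower in metastases), and VDR was the called member of the 3 that passed the filter. VDR had at least 10 counts in all 10 HGA and in 1 of the 4 metastases, so here too it passed mainly through HGA. This comparison shares its HGA samples with the comparison of primary tumors. The call was lost without metastasis 1 (adjusted p = 0.0981), metastasis 3 (0.104) or metastasis 4 (0.105) and when all 25 samples were fitted together (0.0591), while the log2FC stayed between −3.74 and −2.69 when single samples were left out.

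The other members that passed the filter against HGA were PTHLH and PTH1R. PTHLH had a log2FC of 1.95 (SE 0.87, edgeR adjusted p = 1), and −0.81 without metastasis 4. PTH1R had a log2FC of −2.498 (SE 0.92, edgeR adjusted p = 0.493), and with Benjamini-Hochberg adjustment in place of Benjamini-Yekutieli its adjusted p was 0.0490, past the threshold. All 4 metastases were at or below 1.61 CPM for PTH1R, and 9 of 10 HGA were at 2.55 CPM or above. TNFSF11 was called against HGA with no filter (edgeR adjusted p = 0.0108), its mean of 4.54 ± 8.27 CPM (SD, n = 4) being at least 3.66-fold above the HGA limit of 3 counts per sample. Without HGA 1 the adjusted p was 0.165. Without metastasis 4 it was 0.822 and the other 3 metastases were at or under that limit.

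The genes whose pattern over the 11 primary AGASAC was most like that of a member were found by Spearman rho of CPM among 12455 genes. For PTHLH they were PABPC4, a cytoplasmic poly(A)-binding protein (rho 0.891), and ACTN1, the actin cross-linker alpha-actinin 1 (rho 0.864). For VDR they were GSR, glutathione reductase (rho 0.900), and HBS1L, a GTPase of ribosome rescue (rho 0.891). These are the highest values out of many over 11 tumors and are given as a description.

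The wider pathway was described with 7 lists of 88 genes that act with the members, of which 85 were in the table and 52 passed the filter between HGA and primary AGASAC. Of these 52 genes, 22 (42.3%) were called, where 25.1% of all genes were, and 7 of them were higher and 15 lower in HGA. The lists were chosen with earlier results of these data known, so this share is a description and not independent evidence. The median log2FC of the 52 was −0.47, beside −0.03 for all genes. All 22 kept their direction within extraction batches 5, 6 and 8. These batches are subsets of the tumors in which the 22 were called, so this is not independent support. How many of all called genes kept their direction was not computed. Within these batches 2, 8 and 1 of the 22 were called, where 262 of 12356, 637 of 13159 and 338 of 13758 genes were called over all genes. With the batch as a term 18 of the 22 were called.

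Calcium transport had the most distant values. TRPV6, the channel through which epithelia take up calcium and a textbook target of vitamin D, was at 0 counts in all 10 HGA and at 26.7 to 188 CPM in primary AGASAC, at least 75.6-fold higher (edgeR adjusted p = 1.06e-07). Its metastases had 121, 96.3, 216 and 20.4 CPM in dogs 1 to 4. ATP2B2, a plasma membrane pump that moves calcium out of the cell, had 0 or 1 count in each HGA and 77.1 to 460 CPM in primary AGASAC, at least 179-fold higher (edgeR adjusted p = 1.52e-12). TRPV6 and ATP2B2 passed the filter on low counts through AGASAC alone. Such genes are tested only where that group is high, so their calls are not independent of the filter. ATP2A3, which pumps calcium into the endoplasmic reticulum, had a log2FC of −6.55 (SE 0.86). Its HGA median was 0.205 CPM with at most 7 counts in a sample, so the size of this log2FC rests on few reads. ATP2A3 also passed the filter through AGASAC alone, and did so in 11 of the 21 fits that left out a tumor. The fourth gene lower in HGA was ATP2C2, a secretory pathway calcium pump (log2FC −1.84, SE 0.41). The plasma membrane pump ATP2B4 went the other way, with 70.2 ± 26.6 CPM in HGA and 16.8 ± 10.5 CPM in primary AGASAC (SD, n = 10 and 11, log2FC 2.08). Of the 11 tested genes of this list, 1 was higher and 4 were lower in HGA, and 6 were not called.

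TRPV5, the close relative of TRPV6, was named after its values were seen. It was at 0 counts in all HGA and in 7 of the 11 primary AGASAC, and at 4, 44, 41 and 24 counts in AGASAC 1, 2, 3 and 7. Reads that map to several places were split evenly by the authors, so counts of such related genes are less certain.

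In the list of vitamin D handling and VDR partners, 4 of 8 tested genes were called, 2 in each direction. RXRA, which pairs with VDR on DNA, was higher in HGA like VDR (141.6 ± 45.1 against 64.1 ± 18.7 CPM, SD, n = 10 and 11, log2FC 1.17), and its relative RXRB was lower in HGA (25.3 ± 12.1 against 60.3 ± 15.0 CPM, log2FC −1.23). DHCR7, which consumes the precursor of vitamin D3 to make cholesterol, was higher in HGA (log2FC 2.40, SE 0.37), and the nuclear receptor coactivator NCOA1 was lower (log2FC −1.46, SE 0.22). The hydroxylase genes CYP2R1 and CYP27A1, which act before CYP27B1, had log2FC values of −0.68 and 1.05 and were not called.

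In the list of the PTH and calcitonin family, 4 of 12 genes were tested and 1 was called. It was RAMP2, a partner of the calcitonin receptor-like receptor (log2FC 1.81, SE 0.35). PTH itself had at most 6 counts in any HGA and 2 in any primary AGASAC. Among the G protein signaling genes behind PTH1R and CASR, 13 of 14 were tested, with 1 higher and 3 lower in HGA. The higher gene was AP2S1, an adaptor subunit of receptor endocytosis (log2FC 1.22). The lower genes were GNAQ, the Gq alpha subunit (3.38 ± 1.87 against 32.7 ± 12.5 CPM, SD, n = 10 and 11, log2FC −3.21), PRKACB, a catalytic subunit of protein kinase A (log2FC −3.19), and ARRB1, an arrestin of receptor internalization (log2FC −2.02). GNAS, the Gs alpha subunit that PTH1R signals through, had a log2FC of −0.12 and was not called.

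In the list of phosphate handling and FGF23, 6 genes were tested and 4 were called. ALPL, tissue-nonspecific alkaline phosphatase, was at 30.2 to 443 CPM in HGA and at 0 to 6.60 CPM in primary AGASAC (log2FC 5.70, SE 0.68), with the highest value again in HGA 10. ENPP1, which makes the mineralization inhibitor pyrophosphate, was higher in HGA as well (log2FC 3.70, SE 0.35). SLC34A3, a sodium-phosphate cotransporter (log2FC −4.55, SE 0.67), and FGFR1, through which FGF23 acts together with klotho (log2FC −2.64, SE 0.25), were lower in HGA. SLC34A3 had an HGA median of 0 CPM and at most 7 counts in any HGA, so the size of its log2FC rests on few reads. It passed the filter through AGASAC alone. ALPL passed mainly through HGA, with 14, 14 and 23 counts in AGASAC 4, 6 and 9 and fewer than 10 in the other primary AGASAC. The calls of SLC34A3 and ALPL are therefore not independent of the filter. FGF23 was at 0 counts in all HGA and at no more than 10 counts in any primary AGASAC.

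In the list of RANK signaling and osteoclast genes, 0 of 9 tested genes were higher and 3 were lower in HGA. They were TNFSF10 (TRAIL), a ligand that osteoprotegerin also binds (88.5 ± 32.1 against 312 ± 104 CPM, SD, n = 10 and 11, log2FC −1.79), CSF1, the macrophage growth factor that osteoclast precursors need (log2FC −1.59), and NFATC1, a transcription factor of osteoclasts and lymphocytes (log2FC −1.16). The call of NFATC1 was lost in 11 of the 21 fits that left out a tumor. The osteoclast enzyme genes ACP5 and CTSK had log2FC values of −1.02 and 0.37 and were not called. Of the cytokines linked to hypercalcemia of malignancy, 1 of 9 passed the filter, TGFB1, which was lower in HGA (log2FC −2.06, SE 0.48). It was at 4.89 to 76.0 CPM in primary AGASAC, with the highest value in AGASAC 1. Among the untested cytokines, the medians of IL1A and LIF were higher in HGA (6.29 and 3.47 CPM) than in primary AGASAC (0.603 and 0.979 CPM). Those of IL6, IL11, TNF and CXCL8 were 0.335, 0.729, 1.31 and 2.41 CPM in primary AGASAC and 0, 0.215, 0.152 and 0.491 CPM in HGA. These HGA medians, and those of IL6 and IL11 in primary AGASAC, were at or under the limit of 3 counts, so the directions are uncertain. IL1B and TGFA had medians of 0 in both.

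**Figure D4:**
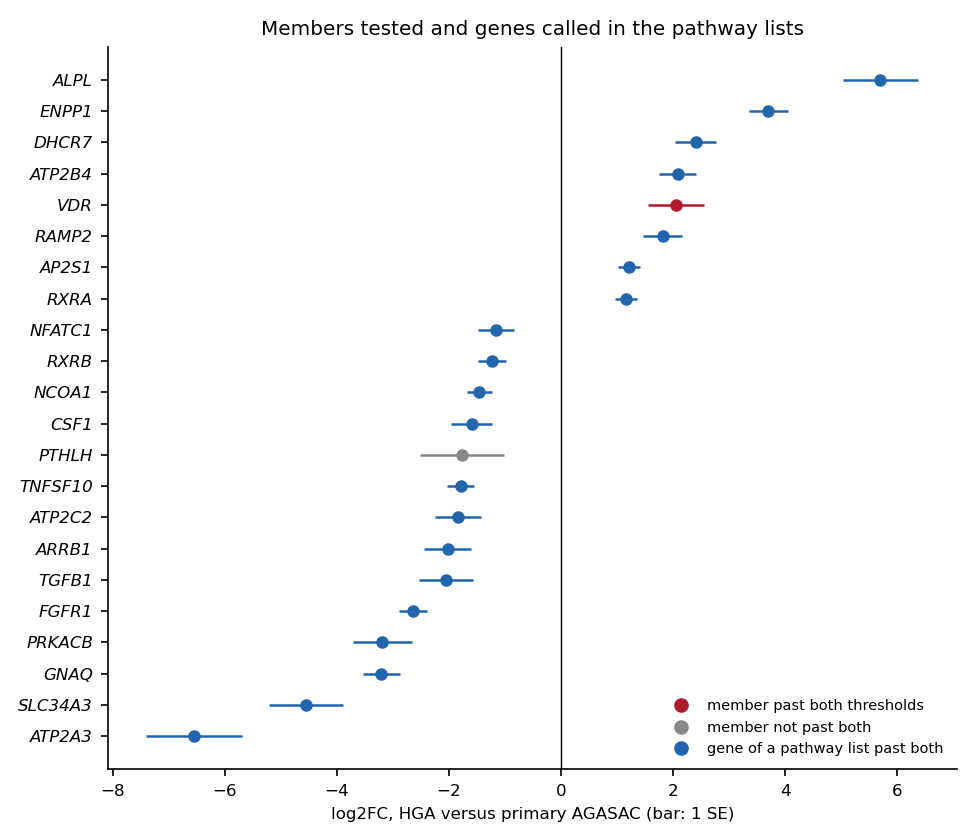
The log2FC with its SE between HGA and primary AGASAC of the 2 members that passed the filter and of the called genes of the pathway lists, with positive values higher in HGA. TRPV6 and ATP2B2 are left out because their HGA samples were at or under 3 counts, VDR lies at 2.05 among the genes higher in HGA, and PTHLH, which was not called, has an SE of 0.74.

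In metastases relative to HGA, 55 genes of the lists passed the filter and 17 were called, where 16.1% of all genes were, 11 of them higher and 6 lower in metastases. The HGA are the same samples as in the comparison with primary AGASAC, and the lists were likewise chosen with earlier results known. TRPV6, ATP2B2 and ATP2A3 were among the genes higher in metastases, and ALPL, ENPP1, DHCR7 and RXRA among those lower. Of these, TRPV6, ATP2B2 and ATP2A3 passed the filter through the metastases alone, and ALPL through the HGA alone. ENPP1, with a median of 3.06 CPM in the metastases (0.965 to 11.9 CPM), passed mainly through the HGA.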

How the data were processed

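QuantSeq 3′ libraries of FFPE tumor RNA were made by the authors, who trimmed the reads with Cutadapt, aligned them to CanFam3.1 with STAR and counted them in 2 rounds with featureCounts, the second on an annotation extended at the 3′ ends, splitting multi-mapped reads evenly. Tool versions are not given in the sources used here. The authors deposited these counts per gene without normalization. They also deposited counts divided by size factors, a signal, with its mean, and the log2 fold change, p-value and adjusted p-value of their own comparison. Only the counts were used, and 0 per-sample columns were left unassigned. The 3′ extension and the multi-mapping rule can move counts of neighboring or related genes.

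Samples were grouped by the labels, and replicates were separate tumors. Extraction batches and file naming series were read from the study's sample lists. No pair of a group was a duplicate by a chi-square of counts, which was at least 12.2 per degree of freedom. Counts were tested in R 4.3.3 with edgeR 4.0.16 (quasi-likelihood, TMM, filterByExpr with a minimum count of 10 and a total of 15, no covariate), with Benjamini-Yekutieli adjustment over all tested genes. Each comparison was fitted on its own samples. Each SE is the log2FC over the square root of F. Fits with no filter gave values for members that were read too rarely. CPM use TMM factors over all 25 samples, with exact Poisson 95% intervals. A group at or under 3 counts in every sample gave a lower bound, the mean CPM of the other group over the mean of 3 counts per sample. By the labels, AGASAC 1 to 4 and the metastases of the same numbers share a dog, and their deviations from the group means correlated at 0.422 to 0.700 across genes in the 4 dogs. Total counts of 1562347 to 6389555 per sample limit the precision of genes at few counts. Scripts were tested on simulated data.

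All members are named. Per list and direction, up to 3 called genes with the largest change were named, and the 2 genes nearest to each tested member. ATP2C2, TRPV5, CALCA, CALCB and uncalled list genes were named after their values were seen. The members and lists were chosen with earlier results of these data known. Alternatives were DESeq2 1.42.0, other scalings, filters and adjustments, batch, naming series and DV200 terms, blocks and left-out samples. No coordinates or sequences are given, since no genome of this build was used here.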

Additional observations from a re-analysis of the deposited data

Results flagged for a closer look

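In 16 sets of samples (8 members in the 10 HGA and in the 4 metastases), 7 values lay farther from the rest of their group than Dixon's criterion at the 95% level allows, where chance marks about 1 in 20 sets of normally distributed values. Many of these values are skewed or at 0, and the chance rate for such values was not computed. Metastasis 4 accounted for 3 of them. Its PTHLH was 236 CPM, where the next metastasis had 14.3 CPM, its TNFSF11 was 16.9 CPM beside 0.965 CPM, and its TNFRSF11B was 19.8 CPM beside 2.39 CPM.

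Among HGA, CYP27B1 was 29.2 CPM in HGA 10 with the next at 2.55 CPM, CASR was 7.96 CPM in HGA 1 with the next at 0.615 CPM, PTH1R was 17.3 CPM in HGA 7 with the next at 8.50 CPM, and TNFRSF11B was 3.99 CPM in HGA 3 with the next at 1.81 CPM. The value of HGA 3 rests on 7 counts. The causes of these values were not tested. Primary AGASAC were left out of this check, so single high values among them carry no flag.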

How the results depend on the processing

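Between HGA and primary AGASAC, 1 member was called, and 0 with library size alone, with at least 10 counts in every sample (where no member could be fitted), with the extraction batch or the naming series as a term, within extraction batches 5, 6 and 8, within naming series A (added after seeing the data) and with a replicate block of the titles' numbers, which share only a name (correlations of −0.048 to 0.028) and under which VDR had an adjusted p of 0.0833. With no filter and single samples left out, also added after seeing the data, 0 to 2 were called, and with the filter 1 in all 21 such fits. In the fits with no filter and a sample left out, VDR was called only without AGASAC 2. Of the list genes, 22 were called, against 9 with at least 10 counts in every sample, 2, 8 and 1 within batches 5, 6 and 8, 14 with the naming series as a term (without AGASAC 4, which was assigned to no series, and 20 without AGASAC 4 alone) and 20 to 22 with a tumor left out. Against HGA, the metastases had 1 called member, 2 with no filter (TNFSF11 besides VDR) or with Benjamini-Hochberg (PTH1R besides VDR), 0 with at least 10 counts in every sample or all 25 samples in 1 fit, and 0 to 1 with a sample left out (0 to 2 with no filter). Against the primary tumors of the same dogs 0 members were called in each fit run, and the replicate block of the dog changed no member's call, while over all genes 1 was called with it where 0 were without it. Directions reversed for PTHLH within batch 5 (0.33), for PTHLH between metastases and primary tumors with the dog block (−0.71) or with samples left out (−2.69 to 0.85), for PTHLH between metastases and HGA with samples left out (−0.81 to 2.35, and −0.78 without metastasis 4 and with no filter), with DESeq2 for CASR (−0.87, and 1.28 against metastases), TNFRSF11B (1.22) and CYP27B1 (−0.61), and with no filter for CASR without HGA 1 (−0.74, and 1.23 against metastases) and CYP27B1 without HGA 10 (−0.54). Over all genes, the 3032 calls became 1452 with at least 10 counts in every sample, 262, 637 and 338 within batches 5, 6 and 8, and 2009 with the naming series as a term (2828 without AGASAC 4 alone), and the 2124 calls of metastases against HGA became 1153 with at least 10 counts in every sample, 3536 with Benjamini-Hochberg and 3211 with DESeq2. Causes were not tested. Depth limits the 6 members that did not pass the filter between the tumors.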

Other observations

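The calcitonin genes CALCA and CALCB, named after their values were seen, had most of their counts in dogs 1 and 2. CALCA, which encodes calcitonin and a calcitonin gene-related peptide, was at 0 counts in all 10 HGA and in 7 of the 11 primary AGASAC. It had 169 counts (50.9 CPM) in AGASAC 1 and 388 counts (126 CPM) in the metastasis of the same dog, and 16 counts (5.23 CPM) in AGASAC 2 and 64 counts (16.98 CPM) in its metastasis. Elsewhere it had 4 counts in AGASAC 3, 6 in AGASAC 6, 1 in metastasis 3 and 0 in metastasis 4. CALCB, the gene of a related peptide, had 26 counts (8.50 CPM) in AGASAC 2 and 942 counts (250 CPM) in its metastasis, and at most 2 counts in every other sample. Both genes are related in sequence and reads that map to several places were split evenly, so the counts of either are less certain. CALCR, the calcitonin receptor gene, was at 0 counts in all AGASAC and metastases. These values have no replicate and were not tested.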
